A study of Mus musculus with 36 samples.

Results

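The strain difference under sacubitril/valsartan (Sac/val) was taken as 129X1/SvJ (129X1) minus C57BL/6 (B6, given as C57BL/6J in the treatment protocol) over all expressed genes, in the 12 Sac/val libraries among the 36 of the study, 6 from each strain. Ligation of the left carotid stops its flow and makes the wall remodel, and each library holds the RNA of 1 mouse's ligated vessel taken on day 14. All 12 mice received Sac/val at 60 mg/kg/day. In the prophylactic regimen (3 mice of each strain) dosing began 2 days before ligation and lasted 16 days, and in the therapeutic regimen (the other 3 of each strain) it began on day 7 and lasted 7 days. Strain differences under vehicle (2 mL/kg/day) and under valsartan alone (Val, 27 mg/kg/day), 6 libraries per strain each, are set beside it and share no library with it. No unligated artery enters these comparisons, and strain is the whole inbred background, so no single locus can be told apart.

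Sacubitril is a prodrug whose active form inhibits neprilysin, the membrane peptidase encoded by Mme that breaks down natriuretic peptides, bradykinin and other vasoactive peptides, and valsartan blocks the angiotensin type 1 receptor, encoded in mice mainly by Agtr1a. The remodelling carotid holds smooth muscle cells that leave the contractile state, adventitial fibroblasts that lay down matrix, and recruited macrophages. Inbred strains differ in coding and regulatory sequence along the whole genome, including clusters of antiviral genes with variable copy number, and C57BL/6J carries a known deletion within Nnt.

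In units of 1e+06, total counts of the 12 libraries ran from 19.59 to 28.97 (median 24.05), and 18628 of 49568 gene symbols were abundant enough to be tested. Levels are given as CPM, counts per 1e+06 counts of the library scaled with TMM factors. Tissue that lies beside the carotid entered the libraries unevenly. Rag1, which recombines antigen receptor genes in thymocytes, was at 166, 396, 225 and 305 CPM in 129X1 prophylactic replicates 1 and 2 and therapeutic replicates 1 and 2. It was at 2.97 and 0.0931 CPM in the other two 129X1 libraries and at 0.0799 to 8.00 CPM in the 6 B6 libraries. The 129X1 therapeutic replicate 3 stood apart, with the thyroid gene Tg at 9290 CPM, the skeletal muscle actin Acta1 at 10500 CPM and the sympathetic gene Th at 5.02 CPM. Gland and muscle were not confined to it. Acta1 was at 5160 and 4480 CPM in B6 prophylactic replicates 2 and 3 and at 5360 CPM in B6 therapeutic replicate 1. The thyroid and parathyroid list summed to 6420 and 8590 CPM in B6 prophylactic replicate 2 and therapeutic replicate 1. It summed to 4640, 5160 and 3350 CPM in 129X1 prophylactic replicate 3 and therapeutic replicates 1 and 2. The smooth muscle myosin Myh11 was present in each of the 12 libraries, at 89.7 to 365 CPM. In bulk tissue, fewer cells of a type and less RNA per cell cannot be told apart.

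Between the strains 1166 of the 18628 genes differed under Sac/val (6.26 percent), 574 higher (3.08 percent) and 592 lower (3.18 percent) in 129X1 by edgeR's quasi-likelihood test at a Benjamini-Hochberg adjusted p under 0.05. The strains' libraries were fully separated in 816 of the 1166, against 1087 of all 18628 genes tested (5.84 percent). The differences were often large: 381 of the 1166 exceeded 3 on the log2 scale (8-fold), 266 of them higher and 115 lower in 129X1. Without adjustment, 3695 of the 18628 genes (19.8 percent) had a p under 0.05, and the DESeq2 Wald test called 1818. These counts and the 6.26 percent are the background for the counts per gene list below. The median log2 difference over all genes was 0.00, and the median half-width of its 95% interval was 0.54. Without every library holding at least 10 CPM of Rag1 (the Rag1-rich libraries of any treatment), which leaves 2 of the 6 Sac/val libraries of 129X1 and all 6 of B6, 595 genes passed, and of the 574 higher and 592 lower genes 269 and 229 passed in the same direction. That fit keeps 1 Sac/val library of 129X1 in each regimen, the therapeutic one being replicate 3, which stood apart. A call lost in it, here or below, cannot be told from a loss of power. The 12 libraries fitted alone gave 2423 genes (1289 higher, 1134 lower), among them 1113 of the 1166 in the same direction. Of the tissue scores used as covariates below, some differ between the strains. The Schwann cell list, 1 of the 3 scores, summed to 1100 to 1700 CPM in 129X1 and 2090 to 2560 CPM in B6. The T cell list, 1 of the 6, was high only in Rag1-rich libraries of 129X1. Such a score can take up strain difference, so a lost call or changed sign with tissue scores cannot show how robust a result is.

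**Figure D1:**
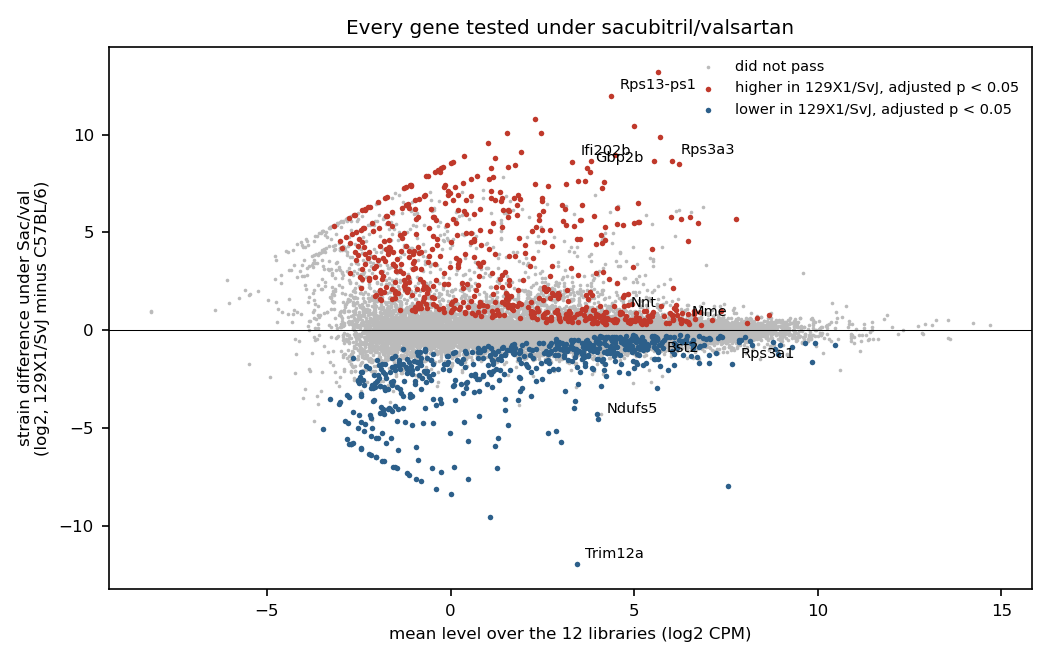
Strain difference under Sac/val (log2, 129X1 minus B6) of each gene tested against its mean level over the 12 libraries (log2 CPM, with 1 gene at 0 in all 12 not drawn). Red points mark the 574 genes higher and blue points the 592 genes lower in 129X1 (edgeR adjusted p under 0.05). Near-silent genes form the outer edges, with Rps13-ps1 at 11.99 and Trim12a at -11.97.

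Genes of the interferon response formed the largest group of calls among the 39 lists examined: 13 of 25 tested members were lower in 129X1 under Sac/val and 1 was higher. The list median was -1.45 on the log2 scale. Bst2, whose product tethers budding virus particles to the cell, was at 21.5 to 35.8 CPM (median 25.8) in 129X1 and at 44.6 to 135 CPM (median 61.3) in B6. The 129X1 libraries all lay below the B6 libraries, with a log2 difference of -1.45 (SE 0.24, edgeR adjusted p = 0.000159). Rsad2, which makes the antiviral nucleotide ddhCTP, was at 3.28 to 8.23 CPM (median 5.99) in 129X1 and 10.5 to 46.1 CPM (median 20.4) in B6, again without overlap (-2, SE 0.38, adjusted p = 0.000746). The oligoadenylate synthetase family, which senses double-stranded RNA, differed in the same way. Oas2 was at 3.90 to 9.56 CPM against 12.4 to 56.0 CPM in B6 (-2.05, SE 0.42, adjusted p = 0.00194). Oasl2 was at 14.9 to 24.3 CPM against 30.4 to 118 CPM (-1.67, SE 0.33, adjusted p = 0.00122). Oas1a (-1.50) and Oas3 (-2.08) were lower with overlapping libraries.

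Other interferon-induced effectors were lower to a similar degree. Ifit1, which binds viral RNA caps, was at 5.44 to 10.4 CPM in 129X1 and 10.4 to 64.8 CPM in B6 (log2 difference -1.75, SE 0.46, edgeR adjusted p = 0.0175). The ubiquitin-like modifier Isg15 was at 4.05 to 7.98 CPM against 7.15 to 47.7 CPM (-1.66, SE 0.43, adjusted p = 0.0162), and the lowest B6 libraries overlapped with 129X1. Irf7, the transcription factor that amplifies the type I response, differed by -1.78 (SE 0.43, adjusted p = 0.00886), also with overlap. Ifit3 (-1.59), the chaperone Rtp4 (-1.46), the RNA sensor Ifih1 (-0.87) and the nucleic acid sensor Zbp1 (-1.38) completed the 13. Upstream of these genes, the signal transducer Stat2 differed by -0.55 (adjusted p = 0.104) and Irf9, its DNA-binding partner, by -0.43 (adjusted p = 0.173), and neither passed. Xaf1, a pro-apoptotic interferon-induced gene, ran the other way, at 44.5 to 61.8 CPM in 129X1 and 17.2 to 41.8 CPM in B6 with no overlap (0.96, SE 0.21, adjusted p = 0.00432).

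The spread lay mostly in B6. Prophylactic replicate 1 and therapeutic replicate 3 of B6 were among the 2 highest B6 libraries for 25 and 24 of the 25 interferon genes, and the list summed to 1600 and 1300 CPM in them against 588 to 818 CPM in the other 4. Leaving out either library left 5 of the 13 lower calls, and leaving out 129X1 prophylactic replicate 1 left 9. Bst2, Rsad2, Oas2 and Oasl2 passed in each of the 12 fits that left out 1 Sac/val library. With 6 tissue scores as covariates 9 members were lower, and without the Rag1-rich libraries none of the 25 passed while the median stayed at -1.45. Under vehicle, 16 members were lower and 1 higher (median -1.32), and under Val 21 were lower and 1 higher (median -1.72).

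**Figure D2:**
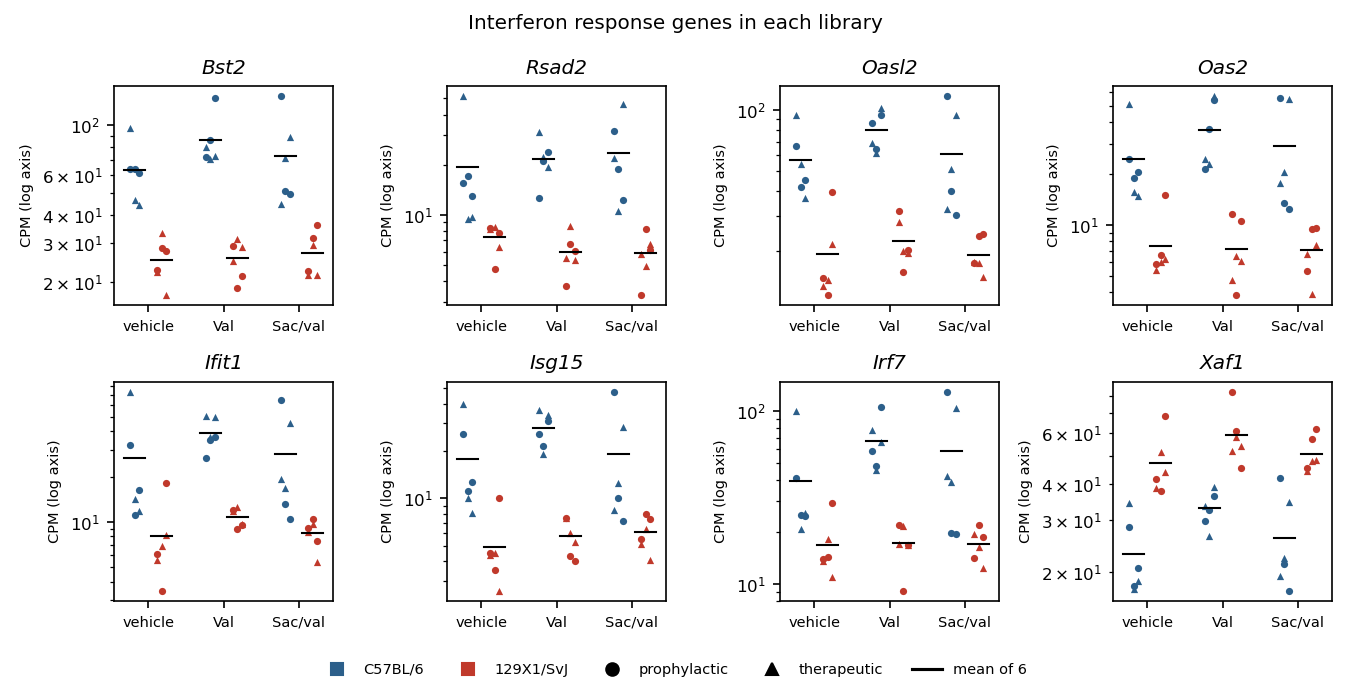
CPM (log axis) of 8 interferon response genes in all 36 libraries, by treatment and strain, with circles for prophylactic and triangles for therapeutic libraries and a bar for the mean of 6. Red 129X1 points lie mostly below blue B6 points under each treatment except for Xaf1. Under Sac/val the B6 points of Bst2 spread from 44.6 to 135 CPM.

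The stretch upstream of these genes can hold the interferon-stimulated response element, the site through which type I interferon turns them on. Its core was searched as GAAA, any 2 bases and another GAAA, on both strands, in the 250 bases before each gene's start (RefSeq, build GRCm38.p6, the C57BL/6J reference sequence). Of the genes in the interferon list, 18 had an entry in that table and 9 of these held the core (50 percent), against 3.46 percent of all 27025 genes with an entry. Of the 10 lower members with an entry, 7 held it (70 percent). Among all genes with an entry that passed under Sac/val, 36 of 383 lower (9.4 percent) and 13 of 259 higher genes (5.02 percent) held it, and 3.39 percent of the 12854 genes tested did. A match is a description of the letters. The 129X1 sequence was not examined. The sequences of Bst2 and Isg15, both lower in 129X1, are shown with each core in capitals. That of Xaf1, which was higher, holds no such core in this window. The lower members Irf7, Oasl2 and Ifih1 hold none either, and Stat2 and Ddx60 hold the core but did not pass. The 3 sequences shown are written 5′ to 3′ on the gene's strand.
Bst2 (chr8:71537473-71537722, minus strand, GRCm38.p6): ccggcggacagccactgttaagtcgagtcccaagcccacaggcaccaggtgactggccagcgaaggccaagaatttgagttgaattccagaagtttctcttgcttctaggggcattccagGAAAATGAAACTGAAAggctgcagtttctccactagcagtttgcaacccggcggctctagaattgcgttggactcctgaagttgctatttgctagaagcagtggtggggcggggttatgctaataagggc
Isg15 (chr4:156200819-156201068, minus strand, GRCm38.p6): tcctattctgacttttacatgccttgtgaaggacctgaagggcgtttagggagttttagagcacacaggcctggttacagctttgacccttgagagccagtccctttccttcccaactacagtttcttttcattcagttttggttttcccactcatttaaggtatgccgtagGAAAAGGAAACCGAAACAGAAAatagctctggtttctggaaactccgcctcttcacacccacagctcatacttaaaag
Xaf1 (chr11:72301379-72301628, plus strand, GRCm38.p6): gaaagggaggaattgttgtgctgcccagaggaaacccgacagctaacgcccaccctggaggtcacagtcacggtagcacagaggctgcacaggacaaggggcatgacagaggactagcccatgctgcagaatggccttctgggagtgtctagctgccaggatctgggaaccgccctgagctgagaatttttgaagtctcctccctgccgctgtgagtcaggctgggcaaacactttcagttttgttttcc
In Bst2 the 2 overlapping cores begin 130 and 124 bases before the start, and in Isg15 the 3 overlapping cores begin 78, 72 and 66 bases before it.

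Single members of clustered antiviral families differed in both directions, some of them near silent in 1 strain. Trim12a, a relative of the retrovirus restriction factor Trim5, had 0 counts in the 6 libraries of 129X1 and 3124 in those of B6 (17.6 to 30.0 CPM), at least 965-fold lower with a floor of 3 counts over the group. Next to it on chromosome 7, Trim5 was at 0.152 to 0.540 CPM against 4.18 to 6.86 CPM (log2 difference -4.06, SE 0.30, edgeR adjusted p = 1.02e-10). Trim34a was at 0.659 to 2.04 CPM against 14.9 to 28.8 CPM (-3.95, SE 0.36), and Trim30d at 0.101 to 0.531 CPM against 9.65 to 26.3 CPM (-5.73, SE 0.46). Trim34b was higher instead, at 2.19 to 4.66 CPM against 0.00 to 0.362 CPM (4.37, SE 0.54, adjusted p = 1.65e-06). In the 2 Mb window from 104000001 to 106000000 on chromosome 7 (GRCm38), 9 of 31 tested genes passed (29 percent), 2 higher and 7 lower.

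In the Ifi200 cluster on chromosome 1, which encodes cytosolic DNA sensors, 1 named member was higher and 1 lower. Ifi202b was at 11.7 to 25.4 CPM in 129X1 and 0.00 to 0.1998 CPM in B6 (log2 difference 8.62, SE 1.15, edgeR adjusted p = 8.41e-06). Ifi213 was at 0.00 to 0.169 CPM in 129X1 and 0.984 to 11.1 CPM in B6 (-7.05, SE 0.94, adjusted p = 5.51e-06). Gbp2b, a guanylate-binding protein gene on chromosome 3, was at 20.8 to 31.9 CPM against 0.00 to 0.215 CPM (8.29, SE 0.51). The GTPase Irgm2, which guards against vacuole-dwelling pathogens, was at 13.0 to 17.0 CPM in 129X1 and 33.2 to 88.0 CPM in B6 (-1.72, SE 0.23, adjusted p = 4.07e-06). Slfn8, of the Schlafen family of growth and tRNA regulators, was at 0.296 to 0.665 CPM against 7.54 to 24.3 CPM (-5.16, SE 0.46). The antiprotease Serpina1b was at 12.9 to 32.2 CPM against 0.00 to 0.226 CPM (7.64, SE 0.49). None of these groups of libraries overlapped. Members of the Trim, Ifi200, Gbp, Irgm, Schlafen and Serpina1 families resemble each other closely enough to share reads, and the reference is a B6 genome, so single-member values are uncertain.

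By place, 18093 of the tested symbols had a position in GENCODE M21 (GRCm38). The share that passed ran from 2.1 percent on chromosome X to 9.43 percent on chromosome 7. Of 1221 windows of 2 Mb, 531 held a gene that passed and 48 held at least 5. Apart from the Trim cluster, dense windows included the zinc-finger genes at 146000001 to 148000000 on chromosome 4 (6 of 16 tested, 5 lower), the non-classical MHC genes at 36000001 to 38000000 on chromosome 17 (8 of 33, 7 higher, the thymus-expressed H2-T3 among them) and the complement receptor pair on chromosome 7 at 16000001 to 18000000 (8 of 34). In that pair the anaphylatoxin receptor C5ar1 was at 7.78 to 17.5 CPM in 129X1 and 21.3 to 83.2 CPM in B6 (log2 difference -1.91, SE 0.46, edgeR adjusted p = 0.00815). Its neighbour C5ar2 was at 0.296 to 1.21 CPM against 2.35 to 5.53 CPM (-2.53, SE 0.50, adjusted p = 0.00128). The call of C5ar1 was lost with 3 or 6 tissue scores as covariates and without the Rag1-rich libraries, and that of C5ar2 with 3 tissue scores (adjusted p = 0.0526).

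Pseudogenes, many of them processed copies of housekeeping genes, were frequent in the higher group. Of 494 tested pseudogenes 133 were higher and 24 lower (31.8 percent passed), which is 23.2 percent of the higher and 4.05 percent of the lower genes. Of 15415 protein-coding genes 307 were higher and 423 lower (4.74 percent). Copies that were near silent in B6 included Rps13-ps1 (34.9 to 48.9 CPM in 129X1, 5488 counts in all, against 1 count in B6, a ratio of 5920 with a 95% counting interval of 1060 to 234000). Rps15a-ps8 had 1447 counts against 1 (ratio 1560, interval 280 to 61700). Rpl15-ps2 had 1290 counts against 0, at least 464-fold higher. Hist1h2al, a histone gene and not one of the copies set beside a parent, had 768 against 0, at least 276-fold higher. The parent genes Rps13 (log2 difference -0.19, edgeR adjusted p = 0.438), Rps15a (0.00, adjusted p = 0.998) and Rpl15 (0.07, adjusted p = 0.677) did not pass.

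In a pair of families the parent was lower in 129X1 where the copy was higher. Rps3a3, on chromosome 13, was at 110 to 147 CPM (median 134) in 129X1 and 0.0718 to 0.633 CPM in B6 (log2 difference 8.68, SE 0.33, edgeR adjusted p = 4.94e-17). Its parent Rps3a1, a protein of the small ribosomal subunit encoded on chromosome 3, was at 84.4 to 103.8 CPM (median 92.6) against 246 to 367 CPM (median 312) in B6 (-1.74, SE 0.13, adjusted p = 7.14e-11). Summed, the pair was at 224.5 ± 20.3 CPM (SD, n = 6) in 129X1 and 312.2 ± 40.4 CPM (SD, n = 6) in B6 (two-sided exact permutation p = 0.00433, 0.0195 adjusted over the 6 pairs summed). BC002163, on chromosome 16, was at 35.96 to 50.3 CPM against 0.588 to 1.54 CPM (5.41, SE 0.28, adjusted p = 4.87e-14). Its parent Ndufs5, an accessory subunit of respiratory complex I encoded on chromosome 4, was at 1.02 to 1.95 CPM (median 1.09) in 129X1 and 20.7 to 43.7 CPM (median 30.7) in B6 (-4.56, SE 0.31, adjusted p = 1.41e-11). Summed, that pair was at 46.6 ± 5.64 CPM (SD, n = 6) in 129X1 and 32.2 ± 7.81 CPM (SD, n = 6) in B6 (two-sided exact permutation p = 0.00649, also 0.0195 adjusted). The sums differed far less than their parts, by log2 ratios of -0.48 and 0.54.

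The sequences show how little separates the members of each pair. BC002163 and the coding part of Ndufs5 matched at 317 of 319 aligned bases (99.4 percent), and Rps3a3 and the coding part of Rps3a1 at 786 of 795 (98.9 percent), in the transcripts of GENCODE M21 (GRCm38, the B6 reference). Shown is 1 stretch of 100 bases from each pair, with the differing bases in capitals. For Ndufs5 and BC002163 both differences that exist fall into it.
BC002163, transcript bases 6 to 105: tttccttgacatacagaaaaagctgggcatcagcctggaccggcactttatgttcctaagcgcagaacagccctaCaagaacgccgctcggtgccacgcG
Ndufs5, coding bases 6 to 105: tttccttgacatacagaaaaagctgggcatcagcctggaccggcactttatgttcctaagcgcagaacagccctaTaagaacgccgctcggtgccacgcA
Rps3a3, transcript bases 161 to 260: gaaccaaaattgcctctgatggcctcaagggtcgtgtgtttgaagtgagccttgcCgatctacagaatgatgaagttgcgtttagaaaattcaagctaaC
Rps3a1, coding bases 161 to 260: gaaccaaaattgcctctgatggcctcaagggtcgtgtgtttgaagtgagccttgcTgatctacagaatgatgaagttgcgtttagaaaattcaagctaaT
A read from the stretch shown that covers neither capital letter matches both members of its pair. How reads were divided between copy and parent was not tested, and the values of all these pairs are uncertain.

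**Figure D3:**
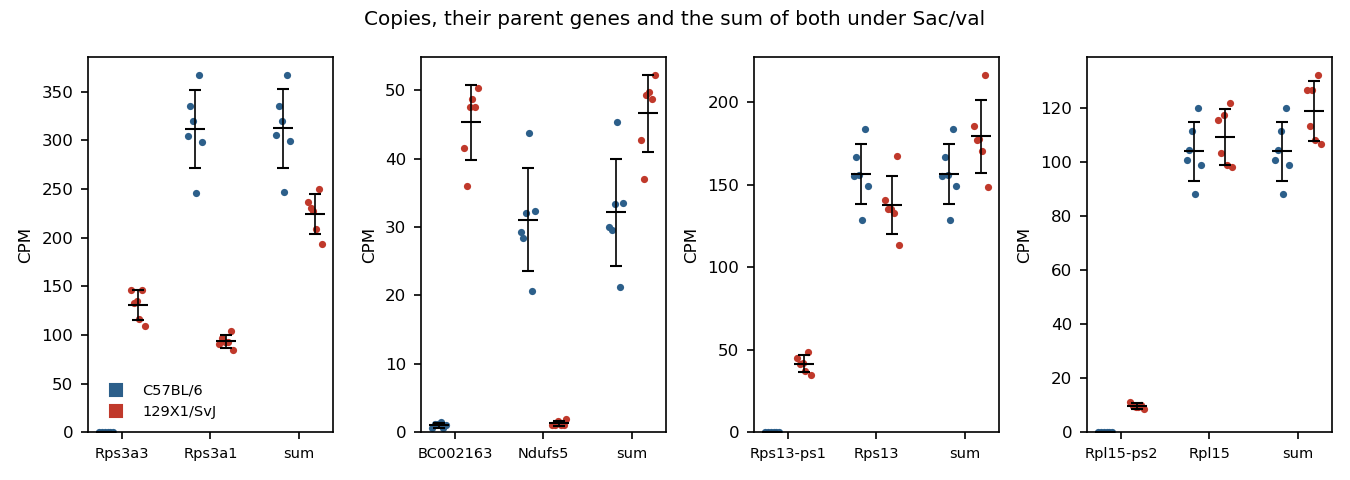
CPM of 4 copies, their parent genes and the sum of both in the 6 Sac/val libraries of each strain (points), with mean and SD. Rps3a1 and Ndufs5 are lower in 129X1 (red) where their copies are higher, and the sums lie closer together (224.5 against 312.2 CPM and 46.6 against 32.2 CPM).

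Single genes whose strains did not overlap came from many functions. Gdpd3, a lysophospholipase D, was at 69.4 to 101 CPM (median 84.3) in 129X1 and 3.75 to 5.96 CPM (median 4.69) in B6 (log2 difference 4.15, SE 0.14, edgeR adjusted p = 5.67e-18). Gchfr, the feedback regulator of GTP cyclohydrolase and so of tetrahydrobiopterin, the cofactor of nitric oxide synthases, was at 30.8 to 59.8 CPM against 0.293 to 1.12 CPM (6.24, SE 0.39, adjusted p = 3.48e-12). It was the 1 gene of 15 tested in the nitric oxide and tetrahydrobiopterin list that passed. The histidine-degrading enzyme Hal was at 14.4 to 28.2 CPM against 0.168 to 0.678 CPM (5.65, SE 0.39), and Abhd1 at 38.5 to 71.2 CPM against 4.61 to 6.66 CPM (3.26, SE 0.20). Lower in 129X1 were Col4a6, a chain of basement membrane collagen IV, at 0.963 to 2.11 CPM against 13.9 to 38.3 CPM (-4.27, SE 0.47, adjusted p = 2.12e-07), and Rpl29, a ribosomal protein with many copies, at 9.35 to 13.3 CPM against 74.7 to 99.9 CPM (-2.94, SE 0.11). Rpl29 was not among the pairs of copy and parent that were summed. Reads it may share with its copies were not examined, so its value is uncertain. The neural secreted protein gene Brinp3 was at 0.0507 to 0.333 CPM against 0.672 to 12.3 CPM (-4.83, SE 0.96, adjusted p = 0.0013), a call lost with 3 or 6 tissue scores and without the Rag1-rich libraries (log2 difference -2.82 with 3 scores). No group of libraries overlapped for these 7 genes.

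Some of the largest differences rested on few libraries or lay in genes whose level varied with neighbouring tissue. Car6, a secreted carbonic anhydrase of salivary gland, was at 2240 CPM in B6 prophylactic replicate 2 and at 0.126 to 0.323 CPM in the other 5 B6 libraries, against 0.00 to 0.101 CPM in 129X1 (log2 difference -7.97, SE 1.83, edgeR adjusted p = 0.00633). Its call was lost without B6 therapeutic replicate 3, by DESeq2 and limma voom, with tissue scores and without the Rag1-rich libraries. H2-T3, expressed by thymocytes, was at 103 to 172.3 CPM in the 4 Rag1-rich libraries of 129X1, at 4.07 and 0.186 CPM in the other two, and at 0.00 to 0.048 CPM in B6 (13.22, SE 2.88, adjusted p = 0.00441). Its call was lost with 3 tissue scores and held in each of the 12 fits that left out 1 Sac/val library. In B6, H2-T3 reached 2.04 CPM under vehicle and 5.37 CPM under Val, where Rag1 reached 755.8 and 1591 CPM. In 129X1 it reached 257.7 and 280.5 CPM, with Rag1 at up to 558.6 and 375.3 CPM. BC018473, annotated as antisense, was at 15.4 to 137.4 CPM against 0.00 to 0.0838 CPM (10.46, SE 0.95). Its reads cannot be told from those of an overlapping gene, since no source used here says how strand was counted.

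The targets of the 2 drugs did not pass under Sac/val by edgeR. Mme was at 66.6 to 141 CPM (median 86.0) in 129X1 and 31.1 to 124 CPM (median 60.4) in B6, overlapping widely (log2 difference 0.43, SE 0.31, 95% interval -0.20 to 1.06, edgeR adjusted p = 0.44). Agtr1a was at 10.9 to 20.01 CPM (median 13.3) against 6.79 to 13.6 CPM (median 9.94), with a difference of 0.45 (SE 0.25, adjusted p = 0.328). It passed with 3 tissue scores (0.79, adjusted p = 0.0448), with 6 (0.79) and by limma voom (0.74, adjusted p = 0.00126), and also under Val (0.98, adjusted p = 0.00844). Npr3, the clearance receptor of natriuretic peptides, differed by 0.21 (SE 0.31, adjusted p = 0.719). The signalling receptor Npr1 differed by -0.09 (adjusted p = 0.844) and Npr2 by -0.23 (adjusted p = 0.6). None of 16 tested natriuretic peptide and cGMP genes passed (median -0.16), nor any of 14 renin-angiotensin genes (median -0.30; Ace -0.23, Agt -0.30, Ren1 -0.97), where 1 gene of each list had an unadjusted p under 0.05. The DESeq2 Wald test called 0 in both lists as well.

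Of 18 tested peptidases that degrade vasoactive peptides, 1 was higher in 129X1. Mmel1, the closest relative of neprilysin, was at 0.101 to 8.13 CPM (median 0.288) against 0.00 to 0.120 CPM (median 0.0659), with overlap (log2 difference 3.79, SE 0.86, edgeR adjusted p = 0.00496), and the call was lost without 129X1 prophylactic replicate 1 and without the Rag1-rich libraries. The endothelin-converting enzyme Ece1 differed by -0.40 (adjusted p = 0.143). Among 22 precursors of neprilysin substrates and kinin genes, 0 passed by edgeR. Penk, the enkephalin precursor, came closest, with 27.1 CPM on average in 129X1 and 16.9 CPM in B6 (0.67, adjusted p = 0.0558), and 2 of the 22 had an unadjusted p under 0.05.

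Nnt, the mitochondrial transhydrogenase that makes NADPH, was the 1 gene of the redox list of 23 that passed. It was at 28.2 to 37.5 CPM (median 33.2) in 129X1 and 14.2 to 22.3 CPM (median 18.0) in B6, with no overlap (log2 difference 0.89, SE 0.19, edgeR adjusted p = 0.00315). The call held in each of the 12 fits that left out 1 library and under every other setting tried (adjusted p up to 0.033). The 23 nuclear-encoded respiration genes were all positive, from 0.12 to 0.51 (median 0.35), and 0 of them passed by edgeR or DESeq2 or had an unadjusted p under 0.05. Under Val all 23 were higher (median 0.98) and under vehicle 6 (median 0.76). The brown fat gene Ucp1 was at 1360 to 3140 CPM in 129X1 and 410 to 1980 CPM in B6 (1.22, SE 0.48, adjusted p = 0.142), and its part in the respiration values was not tested.

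No gene of the smooth muscle, endothelial and adventitial lists passed under Sac/val, with intervals that allow sizeable differences (Acta2 -1.61 to 0.65, Myh11 -1.27 to 0.71 on the log2 scale). Of 20 contractile smooth muscle genes 0 passed (median -0.27), with Acta2 at 202 to 742 CPM in 129X1 and 332 to 913 CPM in B6 (log2 difference -0.48, edgeR adjusted p = 0.637) and Myh11 at -0.28. Of 18 modulated smooth muscle genes (median -0.43; Spp1 -0.42, Lgals3 -0.73), 17 endothelial genes (median -0.19; Pecam1 -0.18, Cdh5 -0.29) and 16 adventitial fibroblast genes (median -0.29; Pi16 -0.08, Dpt -0.30) 0 passed. At an unadjusted p under 0.05 these lists held 1, 2, 2 and 2 genes, against 19.8 percent of all genes tested. The DESeq2 Wald test called 0, 0, 0 and 0.

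The 30 fibrillar collagen and elastic fibre genes all had negative values, from -0.91 to -0.06 (median -0.33), yet 0 passed by edgeR or DESeq2. An unadjusted p under 0.05 was found for 4 of the 30, against 19.8 percent of all genes tested. Collagen I (Col1a1) was at 4794 to 13180 CPM in 129X1 and 2798 to 12730 CPM in B6 (log2 difference -0.13, edgeR adjusted p = 0.901). Elastin (Eln) was at 193 to 4475 CPM against 410 to 5163 CPM (-0.22, 95% interval -1.79 to 1.35, adjusted p = 0.888). Lox, which crosslinks both, was at 88.6 to 168.8 CPM against 65.3 to 341 CPM (-0.91, 95% interval -1.80 to -0.02, adjusted p = 0.239). Ranges overlapped in each case. Under vehicle 11 of the 30 were lower (median -1.10; Lox -2.33, Eln -2.84) and under Val 5 (median -0.79; Lox -1.56, Eln -0.91). With 3 and with 6 tissue scores as covariates the Sac/val median was 0.22 and 0.27, of the opposite sign. Both sets hold a score that itself differs between the strains, so this change of sign cannot show how robust the values are.

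Genes for matrix proteases and inhibitors (27 tested, median -0.47), TGF-beta signalling (21, median -0.26) and cartilage and bone (16, median -0.45) held 0 calls. Mmp2 differed by -0.38 and Mmp3 by -0.61, Tgfb1 by -0.10, and the cartilage proteoglycan Acan by -0.96 (edgeR adjusted p = 0.301). Unadjusted, 2, 1 and 4 genes of these 3 lists had a p under 0.05, against 19.8 percent of all genes tested, and DESeq2 called 0, 0 and 2. Col4a6 was the 1 call among 23 basement membrane genes, whose median was -0.28.

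**Figure D4:**
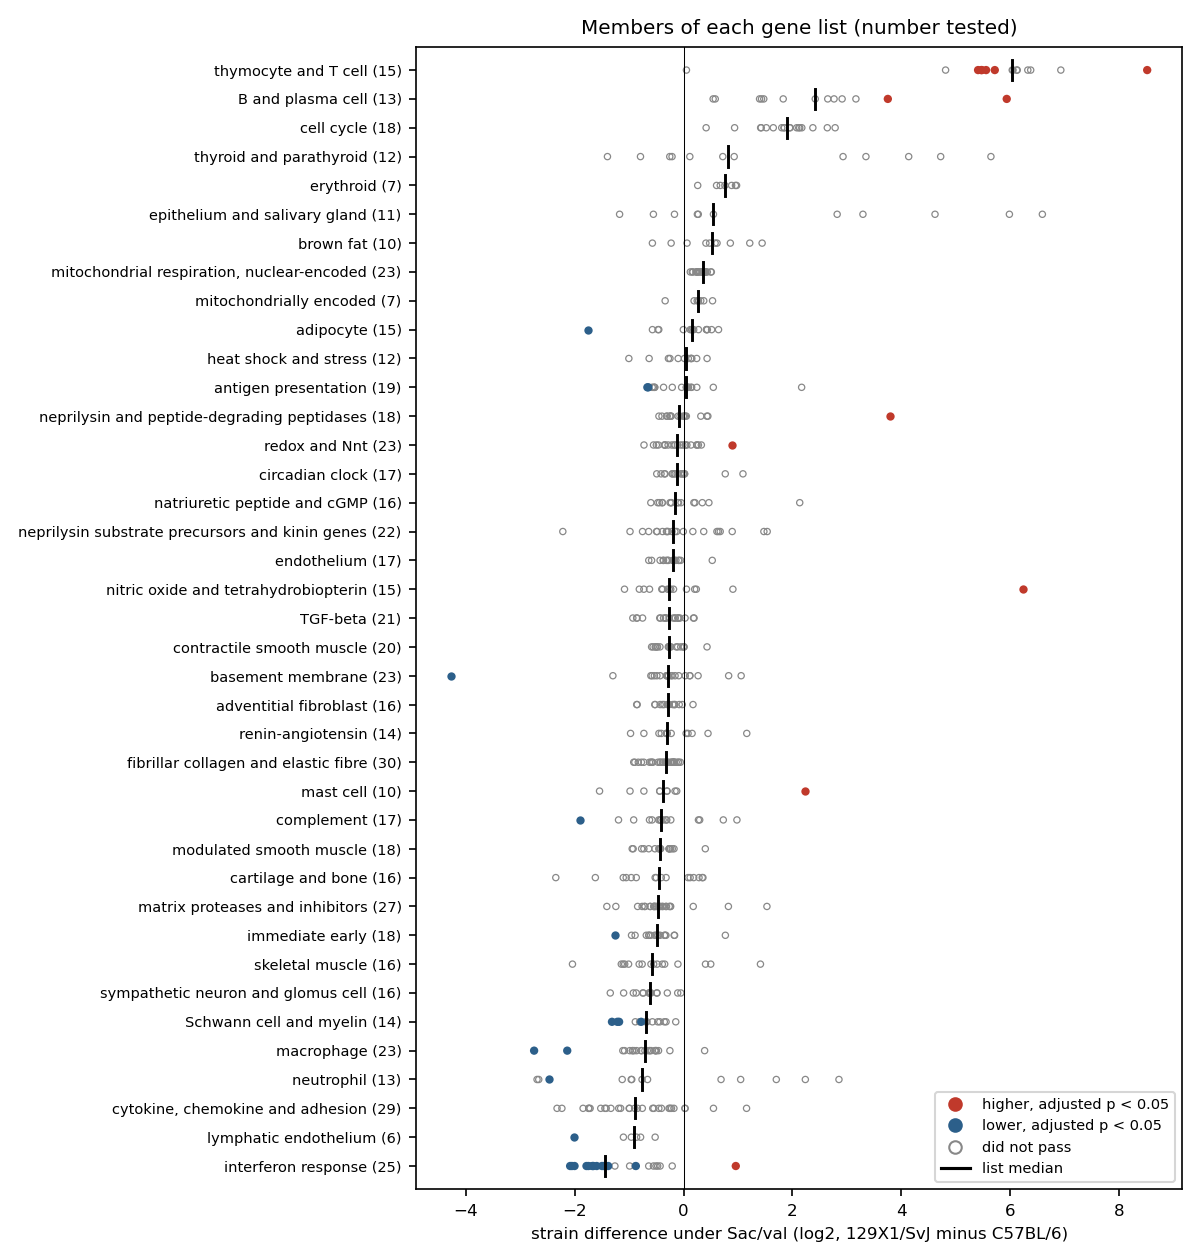
Strain difference under Sac/val (log2, 129X1 minus B6) of every tested member of the 39 gene lists, ordered by the list median (black tick), with filled points for members that passed (red higher, blue lower). The interferon response list at the bottom has 13 blue points and 1 red point, the thymocyte and T cell list at the top has 6 red points, and the wall and matrix lists lie near 0.

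Macrophage genes were mostly lower in value, with 22 of 23 members negative (median -0.71). Of the 23, 2 passed, which is near the 6.26 percent over all genes tested. Fcgr1, the high-affinity IgG receptor, was at 3.52 to 6.42 CPM (median 3.79) in 129X1 and 7.63 to 31.3 CPM (median 18.1) in B6, without overlap (log2 difference -2.13, SE 0.44, edgeR adjusted p = 0.00177; 0.0626 without the Rag1-rich libraries). Arg1, the arginase of alternatively activated macrophages, was at 1.47 to 4.87 CPM against 2.45 to 43.4 CPM (-2.74, SE 0.76, adjusted p = 0.0271), and 8 of the 12 fits that left out 1 library lost it. The complement components C1qa (-0.94), C1qb (-0.99) and C1qc (-0.93) and the pan-macrophage gene Cd68 (-0.62) did not pass. The median moved to -0.15 with 6 tissue scores as covariates.

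Among other immune genes, Retnlg, a resistin-like gene of neutrophils, was lower (-2.47, edgeR adjusted p = 0.0364) at 0.190 to 0.659 CPM against 0.720 to 7.28 CPM, and 8 of the 12 fits that left out 1 library lost the call, as did those with tissue scores. It was the 1 call of 13 tested neutrophil genes (6.26 percent passed over all genes), 8 of them negative and 5 positive (median -0.76). The mast cell tryptase Tpsab1 was higher, at 2.28 to 5.98 CPM against 0.633 to 1.09 CPM with no overlap (2.23, SE 0.50, adjusted p = 0.00438). The other 9 of the 10 tested mast cell genes were negative (list median -0.37), 3 of them with an unadjusted p under 0.05. Of 29 cytokine, chemokine and adhesion genes 0 passed by edgeR and 4 were lower and 1 higher by DESeq2 (median -0.90, 12 with an unadjusted p under 0.05; Ccl2 -1.44, Ccl7 -1.71, Il1b -1.42). Over all genes tested 19.8 percent had such an unadjusted p. Under vehicle 11 and under Val 15 of that list were lower. The MHC class I genes H2-D1 (-0.66, adjusted p = 0.0361) and B2m (-0.65, adjusted p = 0.0179) were lower, with B2m at 532 to 725 CPM in 129X1 and 697 to 1348 CPM in B6. In the antigen presentation list 2 of 19 tested genes passed, against 6.26 percent over all genes, and 10 of the 19 were positive (median 0.05). The call of H2-D1 was lost in 9 and that of B2m in 3 of the 12 fits that left out 1 library. Nr4a1, an immediate early nuclear receptor, was lower as well, at 29.5 to 63.5 CPM against 56.9 to 182.2 CPM with overlap (-1.25, SE 0.31, adjusted p = 0.0101), a call lost with 3 or 6 tissue scores and without the Rag1-rich libraries (adjusted p = 0.511).

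Of 14 Schwann cell and myelin genes 4 were lower in 129X1, all 14 had negative values (median -0.68), and in 6 the strains did not overlap. Over all genes tested 3.18 percent were lower, and in 5.84 percent the strains did not overlap. Of 16 sympathetic neuron and glomus cell genes 0 passed by edgeR (median -0.62, 1 with an unadjusted p under 0.05, 1 by DESeq2). Periaxin (Prx), which stabilises the myelin sheath, was at 37.7 to 69.3 CPM (median 54.7) in 129X1 and 113.4 to 142.4 CPM (median 137.6) in B6 (log2 difference -1.31, SE 0.26, edgeR adjusted p = 0.00113). The tight junction gene Cldn19 was at 10.7 to 15.3 CPM against 24.02 to 31.6 CPM (-1.18, adjusted p = 0.00586), and Mbp, myelin basic protein, at 181 to 279 CPM against 320 to 400 CPM (-0.78, adjusted p = 0.0153). The call of Mbp was lost with 3 or 6 tissue scores, without 129X1 prophylactic replicate 1 or 2 and without the Rag1-rich libraries. The Schwann cell list that is 1 of the 3 scores contains Mbp itself, so its loss with 3 scores cannot show how robust the call is. Under vehicle 0 of the 14 Schwann cell genes passed (median -0.41) and under Val 1 (median -0.31), and the difference between treatments did not pass. Leaving out all Rag1-rich libraries, the median was -0.45 and 2 members were lower. How much nerve stayed on each artery was not measured.

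In the thymocyte and T cell list 6 of 15 were higher (median 6.03), among them the T cell receptor subunits Cd3d (5.41), Cd3e (5.48) and Cd3g (5.55) and the thymic protease Prss16 (8.51, edgeR adjusted p = 0.0363). That list summed to 2080 to 3600 CPM in the 4 Rag1-rich libraries of 129X1 and to 86.1 to 191.6 CPM in the other 8. Leaving out all Rag1-rich libraries, its median was 0.14, and 0 members passed, as in 10 of the 12 fits that left out 1 library. All 18 cell cycle genes were positive (median 1.90; Mki67 2.37, Top2a 2.64), with Mki67 at up to 198.5 CPM in those 4 libraries and 5.43 to 33.4 CPM in the other 8, and 0 passed. Their median was -0.58 without these libraries. In the B and plasma cell list 2 of 13 were higher, Cr2 (5.93) and Fcer2a (3.75), both lost in 9 or 10 of the 12 fits that left out 1 library. Both were highest in 129X1 therapeutic replicate 1. Fcer2a was at 1.76 to 9.26 CPM in the 4 Rag1-rich libraries of 129X1 and at 0.398 and 1.16 CPM in its other libraries. Cr2 did not follow Rag1 in this way, at 1.67 CPM in therapeutic replicate 3 and 0.333 CPM in the Rag1-rich prophylactic replicate 2. Ms4a1 was at 0.354 to 15.4 CPM against 0.0799 to 0.587 CPM (2.91, adjusted p = 0.19).

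In fat, Retn, the adipokine resistin, was the 1 call of 15 adipocyte genes, at 15.6 to 51.8 CPM (median 29.1) in 129X1 and 67.2 to 170.7 CPM (median 91.0) in B6 with no overlap (log2 difference -1.76, SE 0.31, edgeR adjusted p = 0.000235; 0.0805 without the Rag1-rich libraries). The 1 call in 15 adipocyte genes is near the 6.26 percent over all genes tested. The adipocyte median was 0.16, and 0 of 10 brown fat genes passed (median 0.53). Pdpn, which marks lymphatic endothelium and other stromal cells, was lower (-2.01, SE 0.47, adjusted p = 0.0071) with overlapping libraries. Its call was lost with 3 (-1.18) or 6 tissue scores (-1.24) and without the Rag1-rich libraries (-1.57).

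Each regimen alone gave fewer calls in groups of 3. Prophylactic Sac/val gave 461 strain differences (2.47 percent) and therapeutic Sac/val 449 (2.41 percent), and 365 passed in both in the same direction (79.2 and 81.3 percent of each). Bst2 differed by -1.40 and -1.50, Nnt by 0.70 and 1.07, and Mme by 0.43 and 0.43 in the prophylactic and therapeutic regimen. No gene passed the test of the difference between the regimens (0 percent), 0.596 percent had an unadjusted p under 0.05, and DESeq2 called 12. That share is smaller than no difference at all would give on average. The median half-width of the 95% interval was 1.07 (log2), so the lack of calls does not show that the regimens were alike. Among genes that reached 5 CPM the lowest p values belonged to Mucl2, Myh7 and Bpifa1, genes of gland, striated muscle and airway epithelium. Mucl2, for example, was at 203 CPM in 1 B6 library and had a median of 0.0436 CPM in that strain. For Mme the difference between regimens was -0.01 with a 95% interval of -1.26 to 1.25.

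Most strain differences found under Sac/val were also seen in mice given vehicle or Val. Of the 1166 genes, 1156 (99.1 percent) had the same direction under vehicle, against 74.6 percent of all genes tested, and 1092 (93.7 percent) under Val, against 55.8 percent. Under vehicle 2522 genes passed (13.5 percent, with 7.02 percent higher and 6.52 percent lower), and 887 of them passed in the same direction under Sac/val, 76.1 percent of the Sac/val genes and 35.2 percent of the vehicle genes. Under Val 3898 passed (20.9 percent, 11.3 percent higher and 9.61 percent lower), with 836 shared, 71.7 percent of the Sac/val genes and 21.4 percent of the Val genes. In all 3 treatments 774 genes passed in the same direction, 389 higher and 385 lower. Ranked by the smallest of the 3 differences among genes that reached 5 CPM, these included Rps13-ps1 (11.64 under vehicle, 12.77 under Val), Eno1b (10.60 and 11.00; 9.86 under Sac/val), Trim12a (-11.25 and -12.90), Trim30d (-5.84 and -6.03), the pseudogene Gpr137b-ps (-5.29 and -6.04) and Col4a6 (-4.34 and -4.35). Eno1b matched the coding part of Eno1 at 1297 of 1305 aligned bases (99.4 percent), so its values are uncertain. Under Sac/val Eno1 did not pass (-0.06, edgeR adjusted p = 0.907). The sum of both differed by a log2 ratio of 0.18 (two-sided exact permutation p = 0.403).

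The 217 genes that passed under Sac/val alone were not shown to differ between treatments. No gene passed the test of Sac/val minus vehicle (0 percent; smallest edgeR adjusted p = 0.952, 651 genes with an unadjusted p under 0.05) or of Sac/val minus Val (0 percent; smallest adjusted p = 0.179, 3565 unadjusted). DESeq2 called 5 and 435 genes in these tests. Rag1-rich libraries numbered 4 in 129X1 and 0 in B6 under Sac/val but 4 and 2 under vehicle and under Val, and 14 of 15 thymocyte and T cell genes (median 8.24) and 18 of 18 cell cycle genes (median 3.64) had an unadjusted p under 0.05 for Sac/val minus Val. The part of this imbalance in the treatment differences was not tested. With 3 tissue scores as covariates 335 genes had an unadjusted p under 0.05 for Sac/val minus Val. Against vehicle, among genes that reached 5 CPM, the lowest p values belonged to the peptide precursor Calca (5.85, 95% interval 2.82 to 8.88; up to 1527 CPM in B6 vehicle libraries, whose mean was 257 and SD 622.3, where Tg also reached 39850 CPM), the secreted stress protein Manf (0.68, 0.26 to 1.11) and Pdzd2 (-0.88, -1.44 to -0.31). Against Val they belonged to the antigen-presenting Cd1d2 (4.92, SE 1.24), the translocon gene Tram1 (0.65, SE 0.16) and the glutathione transferase Mgst3 (-1.28, SE 0.31).

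For matrix and chemokine genes named after their values were seen, the intervals of the difference were wide. The strain difference of Lox was -2.33 under vehicle and -0.91 under Sac/val, a change of 1.42 (95% interval 0.16 to 2.67, unadjusted p = 0.0282, edgeR adjusted p = 0.952). That of Eln changed by 2.62 (0.37 to 4.88), that of Thbs1, a matrix protein that activates TGF-beta, by 1.13 (0.03 to 2.23), and that of Ccl7 by 1.14 (-0.62 to 2.90). Mme differed by 1.19 between the strains under vehicle (adjusted p = 0.0116), by 1.29 under Val (adjusted p = 0.00516) and by 0.43 under Sac/val. Its change was -0.76 from vehicle (-1.65 to 0.13) and -0.86 from Val (-1.75 to 0.03), and neither passed. Bst2 changed by -0.13 (-0.83 to 0.57) and Nnt by 0.27 (-0.28 to 0.82) from vehicle.

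**Figure D5:**
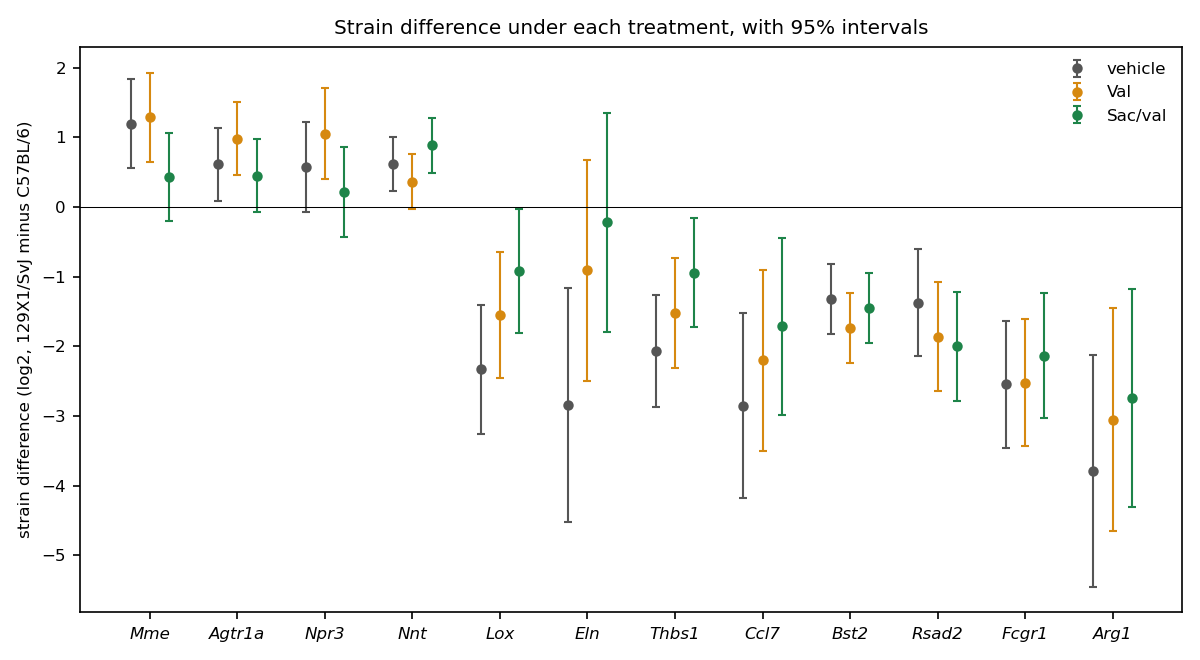
Strain difference (log2, 129X1 minus B6) with its 95% interval for 12 genes under vehicle (grey), Val (orange) and Sac/val (green), 6 libraries per strain each. Bst2 and Rsad2 lie below 0 under all 3 treatments, while Lox, Eln and Mme lie closest to 0 under Sac/val (Mme at 0.43 against 1.19 and 1.29).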

How the data were processed

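Gene counts were measured by RNA-seq in 36 libraries, 1 mouse each, in 12 groups of 3, and the authors deposited raw counts per gene symbol. Per the submitters' processing notes, Trimmomatic 0.36, STAR 2.5.2b and featureCounts of Subread 1.5.0p3 were used with build GRCm38. The strand setting and annotation of the counting are not given in the sources used here. Counts were fitted in R 4.3.3 with edgeR 4.0.16 (filterByExpr, TMM, quasi-likelihood test, 12 group means, 24 residual degrees of freedom, Benjamini-Hochberg adjustment over 18628 genes). The strain difference under Sac/val is the mean of its values in both regimens, and the differences between regimens and treatments are contrasts of the same fit. The biological coefficient of variation was 0.463. The fit was also run on simulated counts with strain differences added under Sac/val. These counts were drawn around 1 mean level per gene, without uneven neighbouring tissue, so they do not bear on its effect.

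Alternatives used DESeq2 1.42.0, limma 3.58.1, other filters, covariates and library sets. Tissue scores are mean log2 CPM of marker lists: 3 scores (skeletal muscle, adipocyte, Schwann cell) or 6 (T cell, B cell, skeletal muscle, thyroid, adipocyte, sympathetic). The members and the 39 lists were chosen with earlier results of these data known. Genes were named by rule: Mme, Agtr1a, Npr3 and Nnt, the 10 largest non-overlapping differences per direction at or above 5 CPM, up to 4 that passed per list, leading genes of the difference tests (up to 6 that passed or the 3 of the smallest p), tissue markers, and leading genes shared by all 3 treatments. Lox, Eln, Thbs1, Ccl7, Ccl2, Il1b, Col1a1, Spp1, Xaf1, Gbp2b, the copies' parents, BC002163, Gdpd3, Hal, Abhd1, Serpina1b, Ifi213, Trim34b, Irgm2, Rpl29, B2m, Mki67, C5ar2, the interferon genes after the leading 4 and the list members that did not pass were named after their values were seen. A floor of 3 counts over the group was used for genes at 0. Counting intervals cover counting error only. Some results are not reported here.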

Additional observations from a re-analysis of the deposited data

Results flagged for a closer look

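In 6 of 32 sets of 6 Sac/val libraries of 1 strain that were examined (16 measures), 1 library lay far from the other 5 by Dixon's test, where chance flags about 1 in 20. Agtr1a was at 20 CPM in 129X1 prophylactic replicate 3, and the nearest library was at 14.3 CPM. Npr3 was at 46.8 CPM in 129X1 therapeutic replicate 3, with the nearest at 23 CPM. The thyroid gene Tg was at 9287 CPM in that library, with the nearest at 1.27 CPM, and at 21.5 CPM in B6 therapeutic replicate 1, with the nearest at 6.93 CPM. The skeletal muscle actin Acta1 was at 10505 CPM in 129X1 therapeutic replicate 3, with the nearest at 3183 CPM. The B cell gene Ms4a1 was at 15.4 CPM in 129X1 therapeutic replicate 1, with the nearest at 1.91 CPM. The labelled groups hold 3 libraries, so both regimens of a strain were pooled for this.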

How the results depend on the processing

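No paired analysis was possible because the labels give no replicate number that the groups share. Against 1166 genes in the main analysis, the strain difference under Sac/val gave 1818 genes by the DESeq2 Wald test, 2423 with the 12 Sac/val libraries fitted alone, 6762 by limma voom with sample quality weights and 595 without the Rag1-rich libraries (fewer libraries). Leaving out 1 library at a time gave 910 to 1295. The other settings, 7 tissue scores included (1592 genes, chosen after seeing the data), stayed within 1.5 times. In the therapeutic regimen 2.41 percent of genes passed, 3.72 percent by DESeq2 and 0.827 percent with its 6 libraries alone. For the tests with 0 genes by edgeR, DESeq2 gave 12 between the regimens, 5 for Sac/val minus vehicle and 435 for Sac/val minus Val, and leaving out 1 library gave 0 to 0 in each. The cause of these changes was not tested. Among the named genes no difference that had passed changed sign, 238 of the values under alternatives lost and 41 gained a call, and 2987 stayed on the same side of the threshold, passed or not. With 24 residual degrees of freedom and a median half-width of 0.54 (log2), small differences were not detectable.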
